A study of Rattus norvegicus with 6 samples.

Results

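Glycosyltransferases of the Golgi build, branch and cap the sugar chains of the gut surface, and their transcripts are described here in the rat ileum after a bypass of the upper gut. They were chosen by name, as all array rows with a single gene symbol that begins with Mgat and a digit from 1 to 5, Galnt or Fut and a digit, St3gal, St6gal, St8sia, B4galt, B3galt, B3gnt or Gcnt. This gave 70 genes in 11 families (St6galnac counted apart from St6gal), of 14506 genes tested. The series holds ileum of 6 Zucker fa/fa rats, a strain that is obese through a defective leptin receptor, operated on at 20 weeks of age and killed 14 days later. In 3 rats a duodenum-jejunum bypass (DJB) led food past the duodenum and upper jejunum, with bile and pancreatic juice joining lower down. The other 3 had a sham operation, in which the gut was cut and rejoined so that food kept its normal path. All 6 rats carried fa/fa, and the series holds no lean or unoperated rats. One array was run per rat, and levels are RMA values on the log2 scale, where 1 unit is a doubling.

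Secreted and membrane proteins of the gut carry N-glycans on asparagine and O-glycans on serine or threonine. Mgat enzymes set the number of branches of an N-glycan, Galnt enzymes place the initial sugar of an O-glycan, and Gcnt enzymes fork O-glycans and long chains. B3gnt, B4galt and B3galt enzymes lengthen the branches, and fucosyltransferases (Fut) and sialyltransferases (St3gal, St6gal, St6galnac, St8sia) add the terminal sugars. Mucus and the brush border are rich in such chains, which gut bacteria bind and feed on.

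Of the 70 genes, 1 fell and 2 rose after DJB. Mgat3, which adds the bisecting sugar of N-glycans, fell 2.47-fold, B3galt5, which makes type 1 chains, rose 1.75-fold, and Gcnt3, a branching enzyme of mucin O-glycans, rose 1.60-fold. A gene is said to rise or fall where its limma p, adjusted by Benjamini-Hochberg over all genes tested, was under 0.05. Among all genes tested this held for 0.772%, with 0.393% higher and 0.379% lower, against 4.29% of the glycosyltransferase genes. The latter share rests on the genes just named, and the set was chosen with earlier results of these data known. Only the fall of Mgat3 held under all 14 alternatives tried. The 2 rises became 1 when the arrays were centred on their medians, quantile normalised again or all rows were adjusted together. They became 0 when same-numbered rats were treated as pairs. When any single array was left out 0 or 1 remained, with 0 without sham 1, sham 3 or DJB 2.

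Most of the 70 genes differed little, as did most genes tested. The differences of 54 genes were under 0.2 in size, as were those of 10729 of the 14506 genes tested. Those of 3 (4.29%), the genes named above, were at least 0.5, as were those of 2.70% of all genes tested. Of the 70 genes 38 were higher and 32 lower, so that 54.3% were higher, beside 61.7% of all genes tested. The median difference over the 70 genes was 0.02, beside 0.05 over all genes tested, and it was -0.01 under both scaling alternatives. At an unadjusted p under 0.05 there were 10 of the 70 (14.3%), 8 higher and 2 lower, and the share of all genes tested was also 14.3%, with 9.82% higher and 4.45% lower. In 13 genes (18.6%) the DJB and sham values did not overlap, beside 21.1% of all genes tested. Of the 13, 10 were higher and 3 lower, beside 14.5% and 6.56% of all genes. On 25 of the 70 rows the mean over the arrays lay under 6.11, the median of all row means, and such dim rows understate differences. None of those 25 was among the 10 at an unadjusted limma p under 0.05. These made up 22.2% of the 45 genes not on dim rows, beside 18% of all genes not on dim rows. Groups did not overlap in 26.7% of the 45, beside 27% of all genes not on dim rows.

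**Figure D1:**
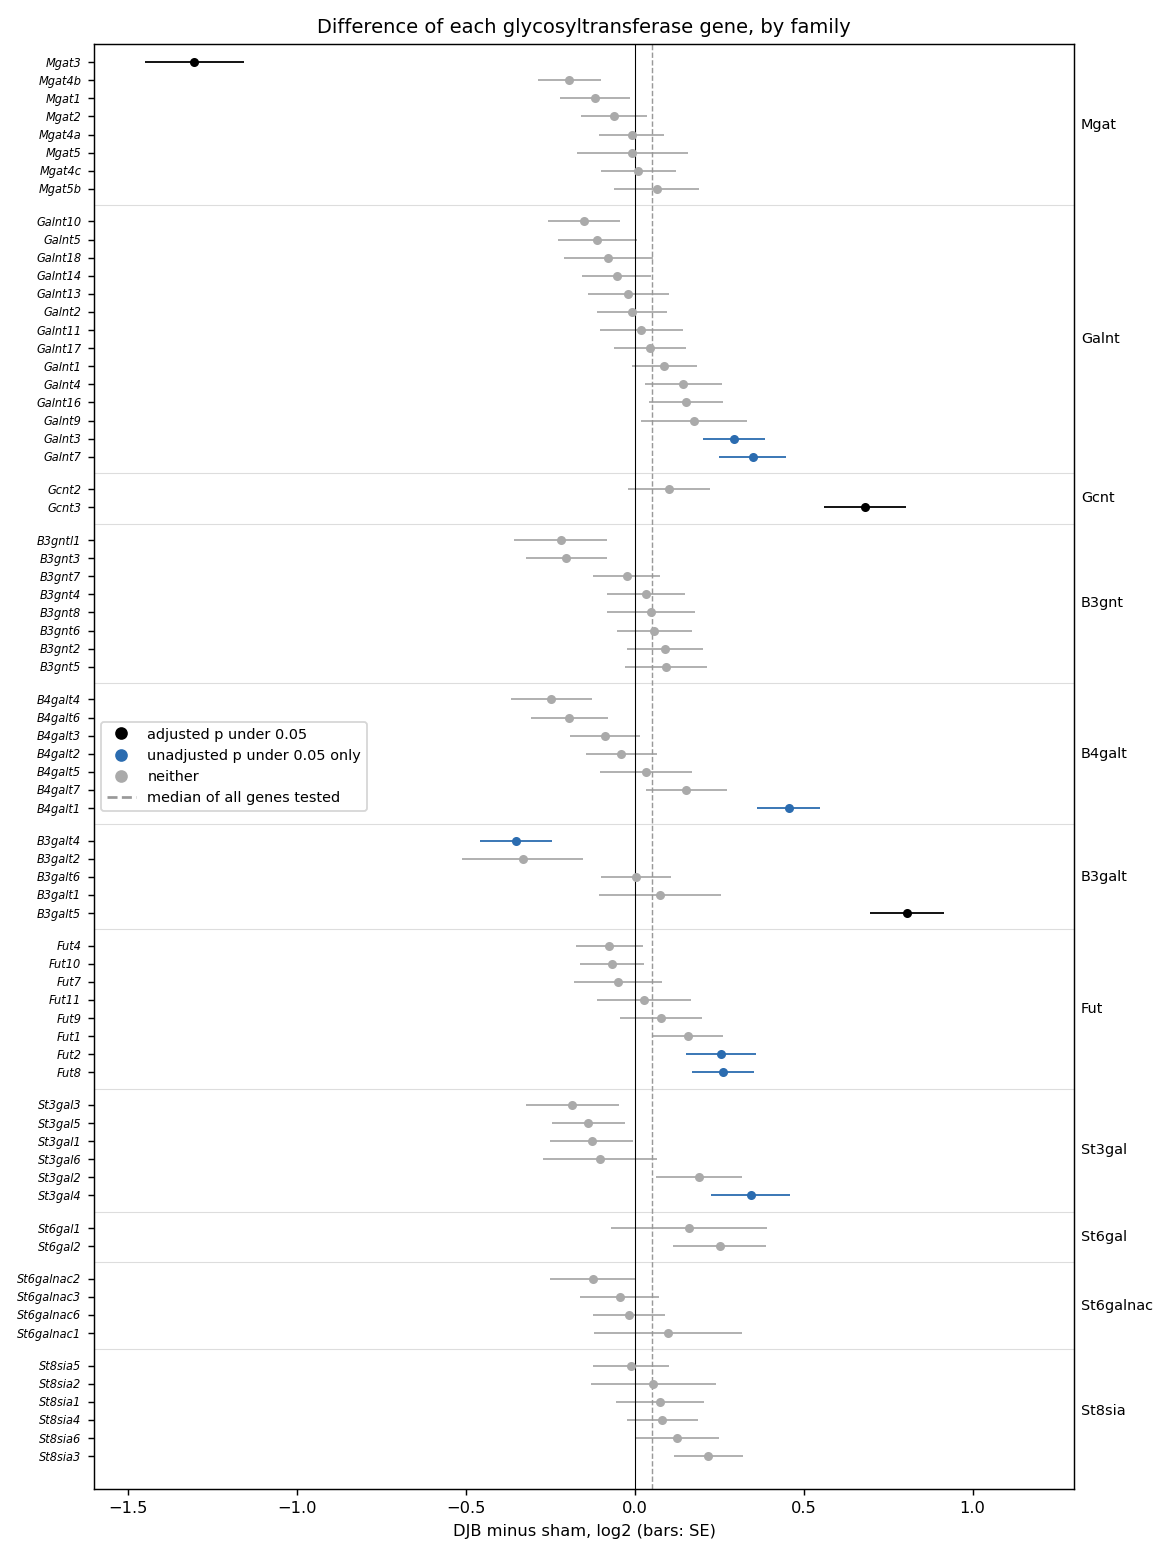
DJB minus sham on the log2 scale for each of the 70 glycosyltransferase genes (points, with bars for the SE of the fit from 3 arrays per group), grouped by family, with the median of all genes tested as a dashed line. Mgat3 at -1.30, B3galt5 at 0.81 and Gcnt3 at 0.68 stand away from the rest, of which most lie within 0.2 of zero.

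Whole ileum was measured, so that fewer cells of a type and less RNA per cell cannot be told apart. All 9 enterocyte markers listed were measured, none on a dim row. The summed level of that list (log2 of the sum of linear values) was 15.44 to 15.68 in sham and 15.71 to 15.79 after DJB, without overlap, with 6 of 9 markers higher. Of these only the bile acid transporter gene Slc10a2 rose (1.73 ± 0.22, SE). Such a sum leans on the brightest markers, and the brightest, Fabp6, differed by 0.30 ± 0.10 without overlap. The 3 lower markers, Vil1, Si and Alpi, differed by -0.01, -0.09 and -0.14. The summed levels of dividing-cell markers (5 of 5 higher, 10.64 to 10.76 in sham and 10.99 to 11.33 after DJB) and of macrophage markers (5 of 5 higher, 9.97 to 10.04 and 10.24 to 10.50) also did not overlap. Among the dividing-cell markers Ccnb1 rose (0.60 ± 0.11, SE, limma adjusted p = 0.0497), and no macrophage marker did. Upper-gut markers were lower in sum (8.17 to 8.49 in sham and 7.72 to 8.06 after DJB), though 3 of the 4 measured were higher. In that list the transcription factor gene Gata4 differed by -1.18 ± 0.23 (SE, adjusted p = 0.0643). The sums of goblet, Paneth, B cell, T cell, smooth muscle, nerve, endothelial, fat and pancreas markers overlapped between the groups, though single markers did not. Of 5 goblet markers measured, 3 were lower and 2 higher. Agr2 (-0.32 ± 0.11, SE) and Spdef (-0.25 ± 0.10) were lower without overlap. So were Defa6 in the Paneth list (-0.68 ± 0.18, with 3 of 6 markers higher) and Spib in the B cell list (-0.83 ± 0.17). T cell and smooth muscle markers were higher in 6 of 6 each, Acta2 (0.25 ± 0.10) without overlap. No gene of these lists passed the adjusted threshold. The part of these shifts in the results below was not tested.

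The Mgat family was measured in 8 genes, of which 6 were lower and 2 higher. Mgat3 encodes the enzyme that adds the bisecting N-acetylglucosamine, a sugar in the middle of the N-glycan core that hinders further branching. Its levels were 8.40, 7.84 and 7.91 in sham rats 1 to 3 and 6.76, 6.80 and 6.69 in DJB rats 1 to 3. Sham 1 was the highest, the DJB rats lay close together, and the lowest sham value was 1.04 above the highest DJB value. The mean was 8.05 ± 0.30 (SD, n = 3) in sham and 6.75 ± 0.06 after DJB (SD, n = 3). The difference was -1.30 ± 0.15 (SE, limma adjusted p = 0.0055). This was the 30th largest fall of all genes tested, and without any 1 of the 6 arrays the difference stayed between -1.41 and -1.13.

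The enzymes that start and add N-glycan branches did not show a difference of that size. Mgat1, which opens the pathway from oligomannose to complex chains, differed by -0.12 ± 0.10 (SE), and Mgat2, which starts the other arm, by -0.06 ± 0.10. Mgat4a, a maker of additional branches, lay at 10.05, 10.06 and 9.96 in sham and 10.13, 9.94 and 9.98 after DJB, so the groups overlapped. Its difference of -0.01 (95% interval -0.23 to 0.21) was 0.08 on its other row, the single gene of the 70 with more than 1 row. Mgat4b lay at 8.02, 8.02 and 8.16 in sham and 7.84, 7.94 and 7.85 after DJB. These did not overlap, but the difference of -0.19 ± 0.09 did not pass (adjusted p = 0.390). Mgat5, whose branch carries long repeats, differed by -0.01 (95% interval -0.38 to 0.36), and for Mgat5 and Mgat4a the intervals exclude a change as large as that of Mgat3.

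**Figure D2:**
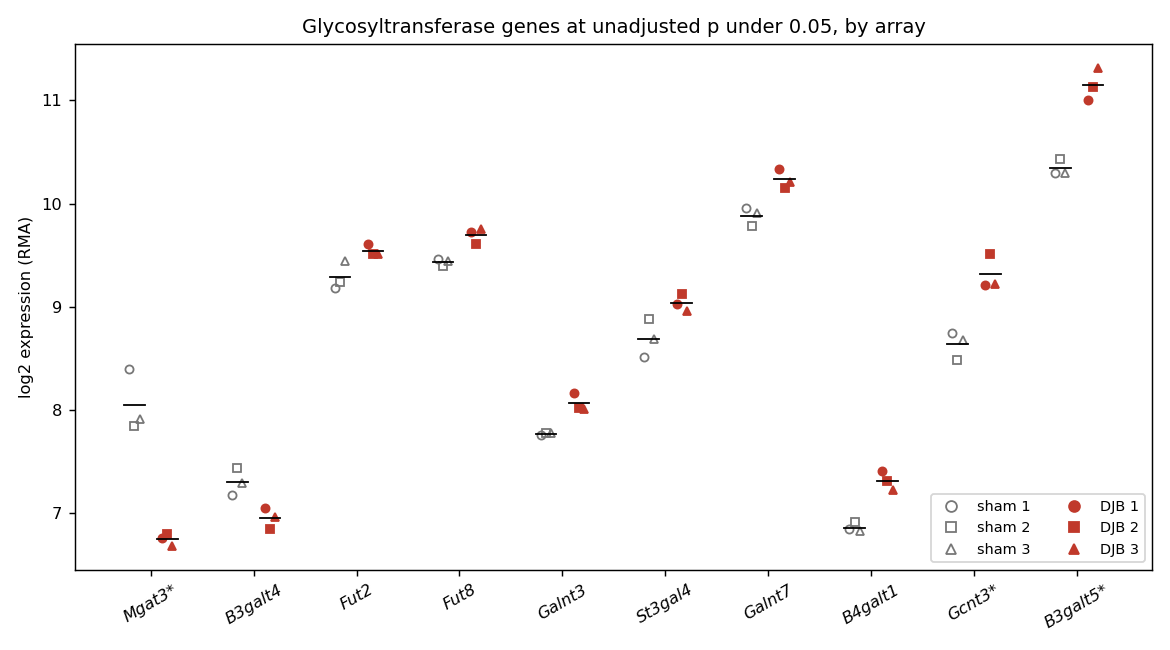
Log2 expression on each of the 6 arrays (open grey symbols sham 1 to 3, filled red symbols DJB 1 to 3, lines the group means) for the 10 glycosyltransferase genes at an unadjusted p under 0.05. An asterisk marks an adjusted p under 0.05. In Mgat3 and B3galt4 all DJB values lie below all sham values, and in the other 8 genes above.

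B3galt5 encodes the galactosyltransferase that makes type 1 chains, the base of the Lewis a and b antigens of human gut epithelium. It lay at 10.29, 10.44 and 10.30 in sham and at 11.00, 11.13 and 11.32 after DJB, with each DJB rat at least 0.56 above the highest sham rat. The difference was 0.81 ± 0.11 (SE, limma adjusted p = 0.0154), from 10.34 ± 0.08 to 11.15 ± 0.16 (SD, n = 3 each). The adjusted p was 0.0599 without sham 1, 0.0837 without sham 3 and 0.0744 without DJB 2, while the difference stayed between 0.72 and 0.88 whichever array was left out.

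Gcnt3 encodes an enzyme of mucin-making epithelia that forms branched cores of O-glycans and can also fork longer chains. Its levels were 8.75, 8.48 and 8.68 in sham and 9.22, 9.52 and 9.22 after DJB, where DJB 2 was the highest. The groups were 0.47 apart at their nearest values, and the difference was 0.68 ± 0.12 (SE, limma adjusted p = 0.0432). Leaving out any single array lost that call (adjusted p from 0.0690 to 0.147, difference 0.58 to 0.74), and under both scaling alternatives (0.0528 and 0.0662). Gcnt2, which forks chains into the I antigen and is the other gene of the family measured, lay at 9.47, 9.21 and 9.63 in sham and 9.46, 9.62 and 9.54 after DJB. It differed by 0.10 ± 0.12 (SE), with overlapping groups.

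Start regions were looked up for the genes that rose or fell. The reference used held none for Mgat3, so only those of the 2 genes that rose are shown. Each window runs from 250 bases before to 50 bases after a transcript start in RefSeq, on the assembly GRCr8. The B3galt5 window lies at chr11:49093945-49094244 on the plus strand and the Gcnt3 window at chr8:79573508-79573807 on the minus strand. Capitals mark matches to any of 9 short motifs searched on both strands.
B3galt5: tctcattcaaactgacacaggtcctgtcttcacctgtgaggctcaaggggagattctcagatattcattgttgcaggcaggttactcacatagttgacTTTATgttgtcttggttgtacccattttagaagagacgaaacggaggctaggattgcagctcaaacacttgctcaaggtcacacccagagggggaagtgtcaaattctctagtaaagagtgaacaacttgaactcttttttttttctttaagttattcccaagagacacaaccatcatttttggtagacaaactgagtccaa
Gcnt3: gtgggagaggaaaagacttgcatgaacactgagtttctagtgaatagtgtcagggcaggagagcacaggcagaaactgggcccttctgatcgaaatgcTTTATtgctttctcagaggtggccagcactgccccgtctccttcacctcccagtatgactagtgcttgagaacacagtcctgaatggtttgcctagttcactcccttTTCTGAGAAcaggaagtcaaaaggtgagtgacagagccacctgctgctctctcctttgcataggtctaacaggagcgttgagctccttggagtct

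Both windows hold TTTAT, the core of the sites bound by the intestinal Cdx factors, starting 152 bases before the start. That motif is in 42.5% of the 33469 windows of the RefSeq table and in 15 of the 63 windows of the glycosyltransferase genes, so a match is common. Gcnt3 also holds TTCTGAGAA, a match to the STAT motif TTCNNNGAA, 45 bases before its start, and 8.87% of all windows hold that motif. The other motifs searched were not found in these windows. They were the HNF1 half-site GTTAAT, in 7.45% of all windows, and the HNF4 motif CAAAGTCC, in 1.4%. The Gata motif AGATAA is in 11.6% of all windows. The GC box GGGCGG is in 33.1%. The TATA box TATAAA is in 14.2% of all windows. The AP-1 motif TGANTCA is in 7.33%. The E-box CACGTG is in 6.42% of all windows. TATAAA can overlap a TTTAT match on the other strand. Windows were found for 57 of the 70 genes. Their median G and C content was 61%, beside 51.7% over all windows, and was 41.7% for B3galt5 and 50.3% for Gcnt3.

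Among the other chain-extending enzymes, B4galt1 came nearest to the threshold. It encodes a galactosyltransferase that makes type 2 chains, the base on which sialyl and fucosyl caps are set. Its levels were 6.85, 6.91 and 6.83 in sham and 7.41, 7.31 and 7.23 after DJB, so that the groups were 0.32 apart. The difference of 0.46 ± 0.09 (SE) gave a limma adjusted p of 0.0759, and of 0.0293 with dim rows left out and 0.0435 with an intensity trend. The other 6 B4galt genes lay between -0.25 and 0.15 and none reached an unadjusted p of 0.05. B4galt6, which makes lactosylceramide, lay at 9.75, 9.97 and 9.88 in sham and 9.73, 9.80 and 9.49 after DJB and differed by -0.19 ± 0.11.

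B3galt4, which extends gangliosides, was lower without passing. It lay at 7.18, 7.44 and 7.30 in sham and 7.05, 6.84 and 6.96 after DJB, without overlap, and differed by -0.35 ± 0.11 (SE, limma adjusted p = 0.191). In B3galt2 the difference of -0.33 ± 0.18 (SE) was of like size, but sham 3 at 9.02 and DJB 3 at 8.03 lay apart from 4 arrays between 8.47 and 8.59. The B3galt family held differences in both directions, and its median of 0.00 turned to -0.02 and -0.03 under the scaling alternatives and to -0.33 with dim rows left out. None of the 8 B3gnt genes differed at an unadjusted p of 0.05, and their differences ran from -0.22 for B3gntl1 to 0.09 for B3gnt5. B3gnt5, which starts the lacto-series chains of glycolipids, lay at 9.85, 9.58 and 9.61 in sham and 9.85, 9.58 and 9.89 after DJB. B3gnt6, which builds the core 3 chains of gut mucin, differed by 0.06 (95% interval -0.19 to 0.31).

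O-glycan initiation was covered by 14 Galnt genes, 8 higher and 6 lower, with none past the adjusted threshold. Galnt7, which works on peptides that already carry a sugar, lay at 9.96, 9.78 and 9.91 in sham and 10.34, 10.16 and 10.21 after DJB. Galnt3, which also glycosylates the phosphate hormone FGF23, lay at 7.76, 7.78 and 7.78 in sham and 8.17, 8.02 and 8.01 after DJB. In both genes every DJB rat exceeded every sham rat. The differences were 0.35 ± 0.10 for Galnt7 and 0.29 ± 0.09 for Galnt3 (SE, limma adjusted p = 0.171 and 0.203). The broadly acting enzymes Galnt1 and Galnt2 differed by 0.09 ± 0.10 and -0.01 ± 0.10. The family median of 0.03 was -0.01 when quantile normalisation was repeated.

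Fucosyltransferases numbered 8, with 5 higher, 3 lower and none past the threshold. Fut2, the secretor enzyme that caps mucin chains with the fucose of the H antigen, lay at 9.18, 9.24 and 9.44 in sham and 9.61, 9.52 and 9.51 after DJB. The lowest DJB value was only 0.07 above sham 3, and the difference was 0.26 ± 0.10 (SE, limma adjusted p = 0.307). Fut8, which puts fucose on the N-glycan core, lay at 9.47, 9.40 and 9.45 in sham and 9.73, 9.61 and 9.76 after DJB. It differed by 0.26 ± 0.09 (adjusted p = 0.248), again without overlap. Fut1, the other maker of the H antigen, differed by 0.16 ± 0.10, and Fut4, which adds the fucose of Lewis x, by -0.07 ± 0.10. The family median was 0.05, and it stayed above zero under both scaling alternatives.

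Sialyltransferases numbered 18, with 10 higher, 8 lower and none past the threshold, and 1 of the 18 was at an unadjusted p under 0.05. That gene was St3gal4, which caps galactose at the ends of chains, at 8.51, 8.89 and 8.68 in sham and 9.03, 9.12 and 8.96 after DJB. The groups were 0.07 apart, and the difference was 0.34 ± 0.12 (SE, limma adjusted p = 0.234). In the same family St3gal1, which caps O-glycan cores, differed by -0.13 ± 0.12 and St3gal5, which makes the ganglioside GM3, by -0.14 ± 0.11. The St3gal median of -0.11 was -0.14 and -0.15 under the scaling alternatives, and 0.03 with dim rows left out.

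Of the 70 genes, St6gal1 varied most between rats of the same group. It encodes a main enzyme that caps N-glycans with sialic acid, and B cells express it too. It lay at 8.19, 8.73 and 9.15 in sham and at 9.08, 8.93 and 8.53 after DJB, with an SD of 0.48 in sham and 0.28 after DJB. The groups overlapped, and the difference of 0.16 ± 0.23 (SE) had a 95% interval of -0.36 to 0.68. B cell and plasma cell markers, lower in 6 of the 6 measured, ranged in summed level from 11.25 to 11.73 in sham and from 11.03 to 11.38 after DJB, and their part in this spread was not tested. St6galnac1, which forms the sialyl-Tn antigen of mucin, was also uneven, at 5.90, 5.99 and 6.73 in sham and 6.29, 6.57 and 6.05 after DJB. The St6galnac genes differed by -0.12 to 0.10, and of these St6galnac2 lay at -0.12 ± 0.13 and St6galnac6 at -0.02 ± 0.11. St6gal2 and 4 of the 6 St8sia genes were on dim rows. St6gal2 differed by 0.25 ± 0.14, and the St8sia genes, which add sialic acid to sialic acid, by -0.01 to 0.22, with St8sia3 at 0.22 ± 0.10 and St8sia4 at 0.08 ± 0.11.

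**Figure D3:**
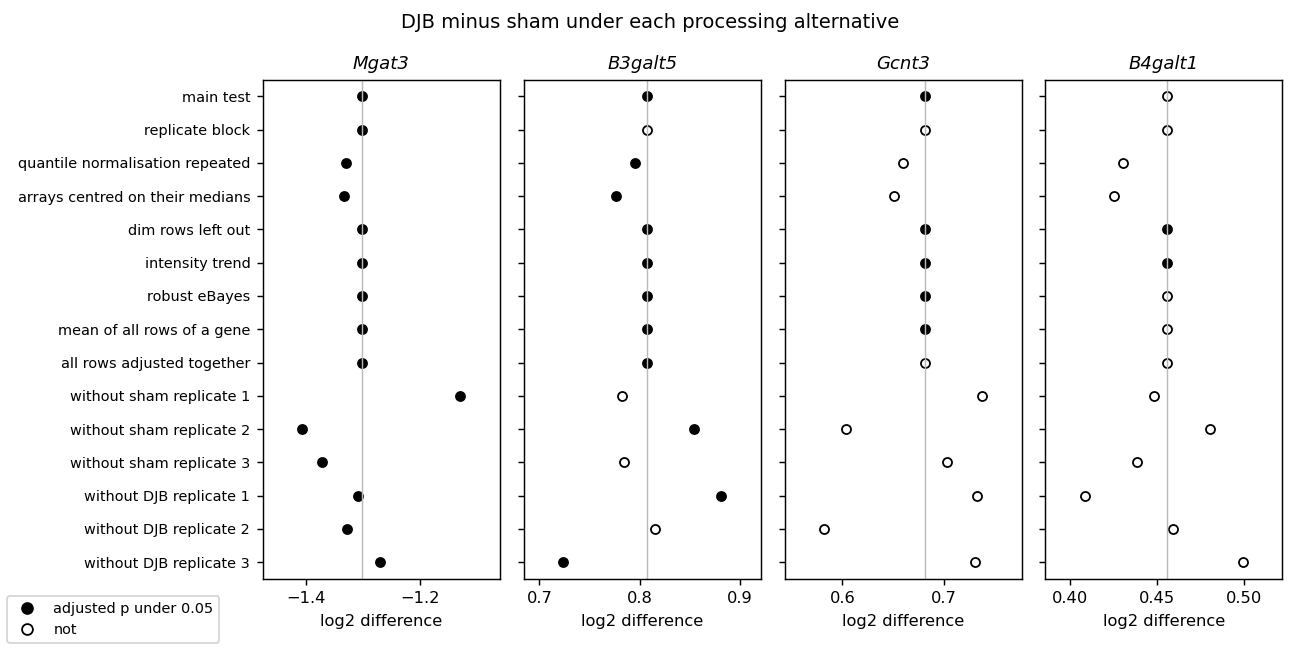
DJB minus sham (log2) for Mgat3, B3galt5, Gcnt3 and B4galt1 under the main test and each of 14 alternatives, with filled points where the limma adjusted p was under 0.05 and a grey line at the main value. The axes differ in range and none starts at zero. Mgat3 is filled throughout, B3galt5 in 10 of the 14 alternatives, Gcnt3 in 4 and B4galt1 in 2.

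The enzymes need sugar donors, carriers and partners, and 76 of 100 symbols listed for these (some of them aliases) were measured, in 5 lists. None passed the adjusted limma threshold. At an unadjusted p under 0.05, 13 were higher and 3 lower, which is 21.1% beside 14.3% of all genes tested. Dim rows made up 18.4% of the 76 and 39.1% of all genes tested. Among all genes not on dim rows the share at that p was 18%. The list of sugar nucleotide synthesis and transport held 7 of the 16 at that p, and its 21 genes had a median of 0.15. In 12 of them (57.1%) the groups did not overlap, 10 higher and 2 lower, while groups did not overlap in 21.1% of all genes tested (14.5% higher, 6.56% lower). None of the 21 was on a dim row, and among all genes not on dim rows that share was 27%. Cmas, which activates sialic acid, differed by 0.37 ± 0.11 (SE, adjusted p = 0.174), and Ugp2, which makes UDP-glucose, by 0.31 ± 0.10 (adjusted p = 0.198). The 4 Golgi carriers measured lay close together, Slc35a1 (CMP-sialic acid) at 0.25 ± 0.10, Slc35a2 (UDP-galactose) at 0.28 ± 0.10, Slc35a3 (UDP-N-acetylglucosamine) at 0.27 ± 0.09 and Slc35c1 (GDP-fucose) at 0.28 ± 0.10, with adjusted p from 0.240 to 0.301. In each of the 4 every DJB rat exceeded every sham rat. Fcsk, the fucose salvage kinase, differed the other way, by -0.37 ± 0.12 (adjusted p = 0.214). The carriers and Fcsk were singled out after their values were seen.

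In the list of early N-glycan steps, 10 of 15 genes (66.7%) were higher (median 0.10), beside 61.7% of all genes tested. Man1c1, a Golgi mannosidase, differed by 0.35 ± 0.11 (SE) and Dad1, a subunit of the oligosaccharide transferase, by 0.22 ± 0.09 (limma adjusted p = 0.198 and 0.321). Of the enzymes that take sugars off, the lysosomal fucosidase gene Fuca1 lay at 9.22, 9.20 and 9.36 in sham and 9.82, 9.77 and 9.65 after DJB. It differed by 0.49 ± 0.10 (adjusted p = 0.0693) and the mannosidase gene Manba by 0.45 ± 0.10 (adjusted p = 0.0881). Both passed with dim rows left out (adjusted p = 0.0270 and 0.0339) and with an intensity trend (0.0168 and 0.0438).

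Among other chain enzymes, 12 of 20 (60%) were higher, beside 61.7% of all genes tested. The lowest p values belonged to genes that were lower. Chst4, which puts sulfate on N-acetylglucosamine of mucin-type chains, lay at 10.31, 10.36 and 10.38 in sham and 10.10, 9.57 and 9.42 after DJB. Its difference of -0.65 ± 0.16 (SE) gave a limma adjusted p of 0.131, and -0.85 with an adjusted p of 0.0107 without DJB 1. Ugcg, which starts glucosylceramide-based glycolipids, differed by -0.41 ± 0.13 (adjusted p = 0.215). C1galt1, which extends O-glycans into core 1, differed by -0.01 ± 0.10. Carriers and galectins of the surface had a median of 0.03, with Lamp2, a glycoprotein of lysosomes, at 0.25 ± 0.09 and the epithelial galectin gene Lgals4 at 0.19 ± 0.09 (adjusted p = 0.242 and 0.396).

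**Figure D4:**
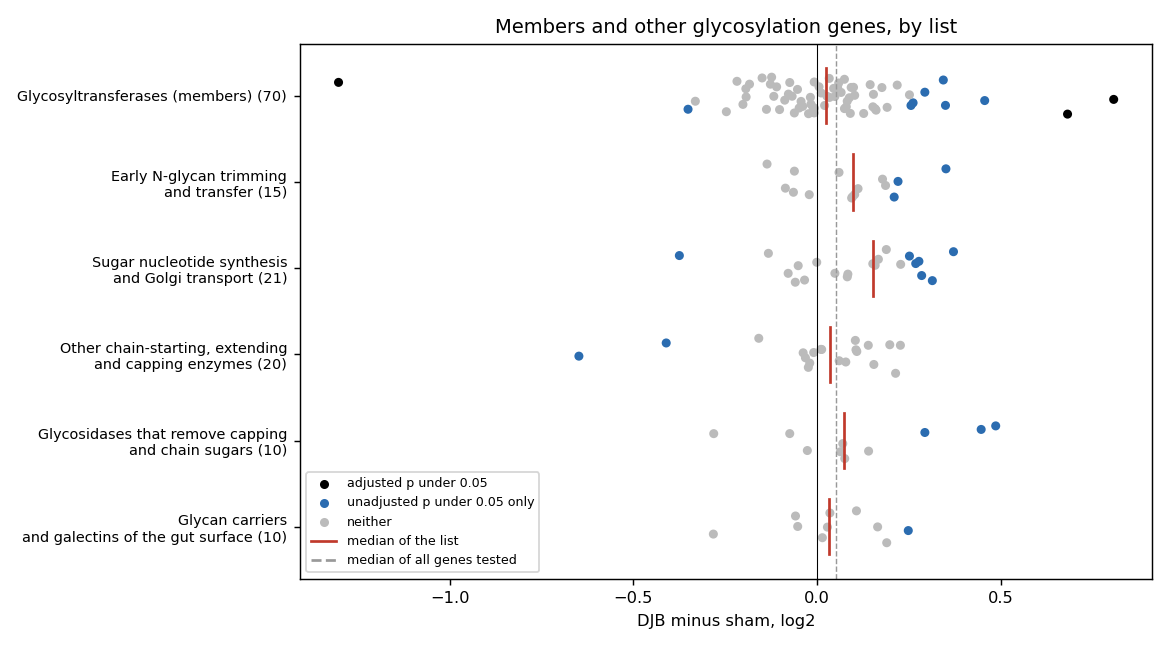
DJB minus sham (log2) of the 70 glycosyltransferase genes and of 5 lists of other glycosylation genes, 1 point per gene with vertical jitter, red bars for list medians and a dashed line for the median of all genes tested. Black points, at an adjusted p under 0.05, occur in the top row only, and the list of sugar nucleotide synthesis and transport has the highest median, 0.15.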

How the data were processed

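Per the labels, ileum RNA of 6 rats was hybridised to rat whole-transcript Affymetrix arrays, 1 per rat. The authors deposited log2 values of 29214 rows made with RMA (background correction, quantile normalisation and probe summary), per the submitters' processing notes; the version and genome build are not given in the sources used here. Array correlations over all rows were 0.987 to 0.993, and having 3 arrays a group limits the precision.

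Rows with 1 symbol in the platform annotation (15310) were used, 323 with several symbols and 13581 with none were not, and the row of highest mean stood for a gene. All 70 symbols are current in RefSeq (GRCr8, used for names and start windows). Of the same families, 14 RefSeq genes, such as Gcnt1 and Galnt6, were not analysed here. DJB was compared with sham by limma 3.58.1 in R 4.3.3 (lmFit, eBayes, no covariate, two-sided), which was tested on simulated data. Python 3.11.15 and matplotlib 3.10.9 drew the figures.

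The genes named were those past the threshold or at an unadjusted p under 0.05, the gene of largest difference and of highest mean in each family, and the 2 lowest p in each of 5 lists; others were named after their values were seen. The genes and lists were chosen with earlier results of these data known. Alternatives covered the replicate block, scaling, dim rows, variance models, row choice, the rows adjusted over and each array left out.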

Additional observations from a re-analysis of the deposited data

How the results depend on the processing

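The fall of Mgat3 kept its call under all 14 alternatives (adjusted p 0.0012 to 0.0313). The number of glycosyltransferase genes that rose, 2 in the main test, was 0 with the replicate block, 1 with quantile normalisation repeated, 1 with arrays centred on their medians, 1 with all rows adjusted together, and 3 with dim rows left out or with an intensity trend, where B4galt1 passed too. Those at an unadjusted p under 0.05 that were lower, 2 in the main test, were 4 after centring. Over all genes, 57 rose and 55 fell in the main test, 27 and 23 with the replicate block, 129 and 96 with dim rows left out (fewer genes tested), and 166 and 129 with an intensity trend. Of the listed pathway genes, 0 rose in the main test and 2 with dim rows left out or with an intensity trend. Without 1 array, 0 to 1 glycosyltransferase genes rose and 1 fell, 6 to 8 were higher and 2 to 5 lower at an unadjusted p under 0.05, 22 to 38 of all genes rose and 10 to 70 fell, 0 pathway genes rose and 0 to 1 fell (Chst4, without DJB 1), and the median over the 70 genes was -0.01 to 0.04. Without sham 3, 10 genes fell over all, and without DJB 1, 70. Small differences changed sign, that of Mgat4a to 0.038 with the mean of its rows, and without 1 array those of Mgat4a (-0.065 to 0.031), St6gal1 (-0.089 to 0.39), Gcnt2 (-0.011 to 0.20) and St6galnac6 (-0.073 to 0.077). Beyond what fewer genes or arrays bring, the cause of these shifts was not tested.

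Same-numbered sham and DJB rats did not deviate together (correlations of deviations from the group means of 0.0053, -0.12 and -0.15 for numbers 1 to 3). Between rats of different numbers these correlations ran from -0.057 to 0.17. Deviations from a mean of 3 arrays are tied to each other, so these values cannot settle whether the numbers pair the rats. The replicate block ended the calls of B3galt5 (adjusted p = 0.0555) and Gcnt3 (0.165) and kept that of Mgat3 (0.0226). With 3 arrays a group the SE of the 70 differences was 0.09 to 0.23, and dim rows, 25 of the 70, limit what can be seen. The labels say that the rats are biological replicates.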
